A study of Mus musculus with 6 samples.

Results

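The genes described here are 10 forkhead transcription factors, Foxf1, Foxf2, Foxc1, Foxc2, Foxd1, Foxl1, Foxp1, Foxp2, Foxo1 and Foxo3. They were taken by name, as every probe set whose only platform gene symbol was one of the 10, which gave 30 of the 45037 probe sets of the array that are not controls. A further probe set that lists Foxo3 together with another gene was left out. The cells came from the bladders of male FVB/N mice, taken at postnatal day 2, that carried both SMGA/EGFP (EGFP under a smooth muscle gamma actin promoter) and SMAA/EYFP (EYFP under a smooth muscle alpha actin promoter), so that every sample came from double transgenic animals. Cells that were EGFP positive and EYFP negative (single-positive, 3 arrays) were compared with cells that were EGFP and EYFP positive (double-positive, 3 arrays). Both populations are labelled as detrusor muscle of the bladder, and the labels state that samples were not pooled. Whether the 3 arrays of either population stem from different animals is not stated, and the p-values therefore reflect only how these samples vary, which may be technical. The reporters mark cells in which these promoters are active, and no sample of other bladder cells was compared.

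Forkhead proteins bind DNA through a winged helix domain. In the embryonic gut, lung and bladder, Hedgehog proteins made by the epithelium act on the mesenchyme beneath it, where Foxf1, Foxf2 and Foxl1 are known targets of the pathway. Foxc1 and Foxc2 act in mesoderm, blood vessels and lymphatic vessels, Foxd1 marks stromal cells of the developing kidney, Foxp1 and Foxp2 are mainly repressors, and Foxo1 and Foxo3 are held out of the nucleus by insulin and growth factor signals. Foxf1, Foxc2 and Foxl1 lie close together in the mouse genome, and so do Foxf2 and Foxc1.

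Signal intensities are in arbitrary units, 1 value per array and probe set. A positive fold change means more signal in the double-positive arrays, and since 25.01 was added to each signal before taking log2, changes of dim probe sets are understated. The deposited arrays share a trimmed mean signal of 1500.01, and their median signals ranged from 147 to 199.8 (3 arrays a group). Markers of several cell types differed between the populations in limma over genes, at an adjusted p of 0.05. Actg2, the endogenous gene of the EGFP promoter, had signals of 68165, 60830.5 and 51399 in single-positive and 7404, 13959 and 10423 in double-positive arrays, and Acta2, that of the EYFP promoter, had 67696, 67708 and 51633 against 58281, 71648 and 49474 on its brightest probe set. The probe sets of Acta2 disagreed. In limma over probe sets the brightest had a log2 fold change of -0.065 (adjusted p = 0.931), while 1444105_at, with 9629, 7271 and 6409 against 412, 435 and 265, had -4.31 (SE 0.31, adjusted p = 0.000484) and 1456658_at had -3.07 (SE 0.78, adjusted p = 0.0766). None of these Acta2 probe sets passed as higher in the EYFP positive cells, and EYFP itself was not analysed here. Over all genes tested 4.38% fell. Of 7 smooth muscle markers 6 fell. The summed signal of all 7 was 224132 to 291866 in single-positive and 73824 to 106075 in double-positive arrays. Acta2, which did not pass, made up most of the double-positive sums. All 8 leukocyte markers fell (70275 to 96207 in single-positive and 8148 to 15987 in double-positive arrays), with Csf1r and Mrc1 the brightest. Of 8 endothelial markers 4 fell (30866 to 39776 in single-positive and 5481 to 8343 in double-positive arrays), with Lyve1, which fell, and Tek, which did not pass, the brightest, of 8 urothelial markers 6 fell (20205 to 28874 in single-positive and 2460.1 to 5318 in double-positive arrays), with Perp and Krt18 the brightest, of 5 measured nerve and Schwann cell markers 3 fell (9164 to 12677 in single-positive and 1083 to 1857 in double-positive arrays), with Erbb3 and Mbp the brightest (Sox10, at 0.25, and S100b, at -0.40, did not pass), and of 4 pericyte markers 2 fell (40085 to 44624 in single-positive and 21529 to 35452 in double-positive arrays), with Rgs5, which fell, and Pdgfrb, which did not pass (log2 fold change 0.49), the brightest. None of 6 fibroblast markers passed (290851 to 348418 in single-positive and 290406 to 417295 in double-positive arrays), with Col1a2 and Col3a1 the brightest. No measured marker was at 0 in any array, but a value above 0 does not show that a gene was expressed. In double-positive arrays Krt15 had 7.88, 18.7 and 16.7 and Snap25 had 14.5, 1.76 and 27.7, near or below the offset of 25.01. In the double-positive arrays the means of Pecam1, Krt15, Shh and Snap25 were lower than the cutoff used to leave out dim probe sets. Shh was among the urothelial markers that fell. Fewer cells of a type and less RNA per cell cannot be told apart in such samples, and the part of these cell types in the values below was not tested.

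Foxf1 and Foxf2 rose and Foxp2 fell in the double-positive arrays, while the other forkhead genes with a tested probe set did not pass. Of the 30 probe sets, 23 from 8 genes had a mean log2 signal above 6.81, the 40th percentile of all probe sets, and were tested. The other 7 were too dim, among them the only probe sets of Foxd1 and Foxl1. In limma over 27022 probe sets, 4 of the 23 passed an adjusted p of 0.05, 2 higher (Foxf1 and Foxf2) and 2 lower (both Foxp2), where over all tested probe sets 3.42% passed, 1.01% higher and 2.42% lower. With double-positive array 1, or single-positive array 2 or 3, left out, only 1 passed as higher, and leaving out any 1 of the single-positive arrays left 1 lower. Of the 23, 7 had groups with no overlap, 3 higher and 4 lower, where 18.7% of all tested probe sets were so separated. The median log2 fold change of the 23 was -0.43, beside 0.024 over all tested probe sets. With 1 probe set per gene, the brightest, 3 of the 8 genes passed, beside 6.37% of all 13464 genes. Probe sets of 1 gene share its transcripts, and the genes were proposed with earlier results of these arrays known, so these counts describe the chosen genes and no more.

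**Figure D1:**
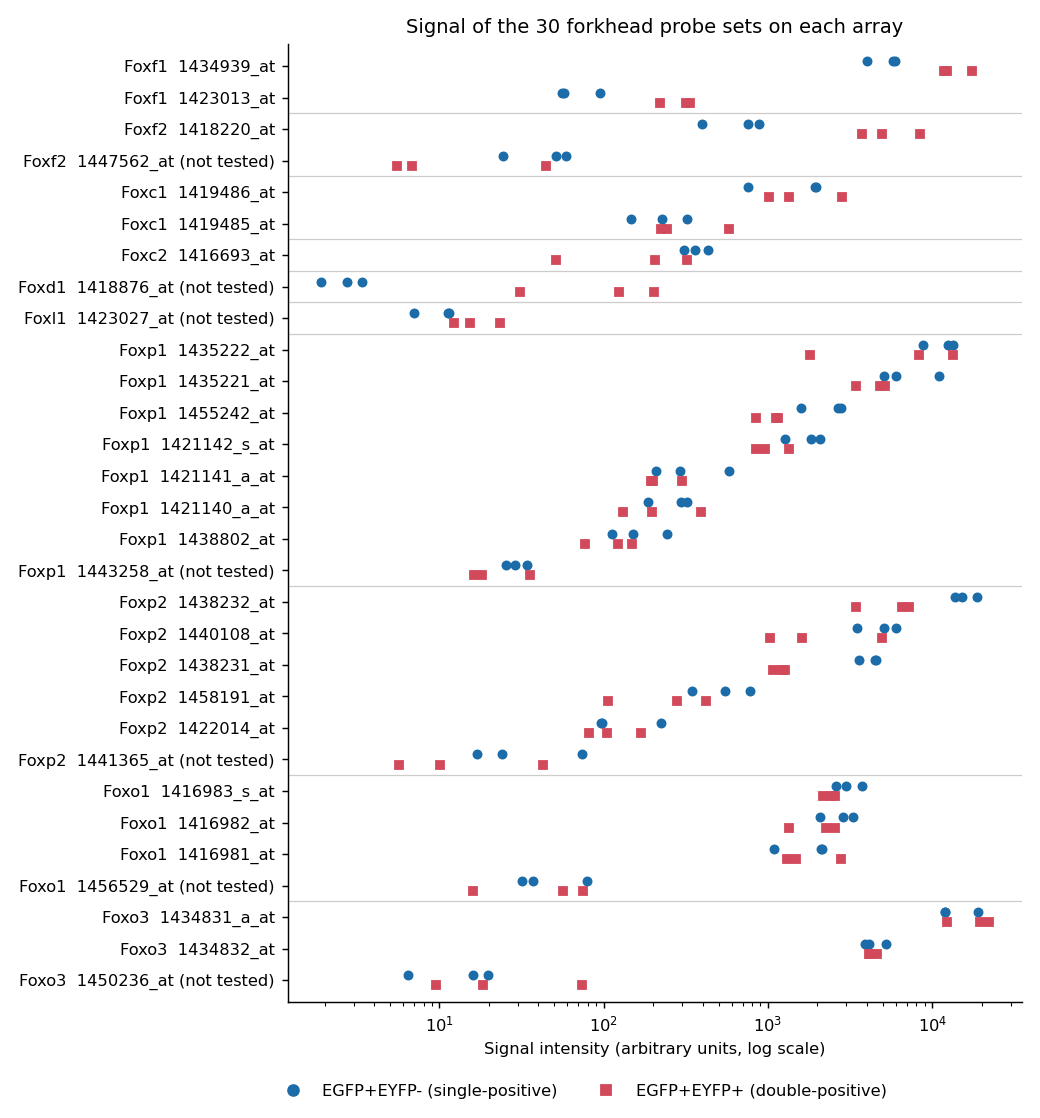
Signal intensity of the 30 forkhead probe sets (log axis, arbitrary units), 1 point per array, with single-positive arrays as circles and double-positive arrays as squares. The squares lie to the right of the circles for both Foxf1 probe sets and for the brighter Foxf2 probe set, and to their left for Foxp2 probe sets 1438232_at and 1438231_at. They also lie to the right for Foxd1 and Foxl1, which were not tested. Foxp1 1455242_at and Foxo1 1416983_s_at, which did not pass, have them to the left.

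Foxf1, a Hedgehog target that mesenchyme of gut and lung needs, rose in the double-positive arrays on the brighter of its 2 probe sets. On that probe set, 1434939_at, the signals were 5917, 3993 and 5771 in single-positive and 17586, 11715 and 12298 in double-positive arrays. The lowest double-positive value stood well above the highest single-positive value, and the group means differed 2.65-fold, 13866 ± 3234 against 5227 ± 1071 (SD, n = 3 each). The log2 fold change was 1.40 (SE 0.24, with an adjusted p of 0.0146 over probe sets by limma). Leaving out double-positive array 1, or single-positive array 2 or 3, ended this call over probe sets, with adjusted p of 0.0634, 0.0634 and 0.0502, and so did the fit without a variance trend (adjusted p = 0.0727). Over genes the adjusted p of Foxf1 was 0.00646, and it lay between 0.00982 and 0.0314 when any 1 array was left out. On the dimmer probe set, 1423013_at, the signals were 55.4, 57.6 and 95.2 against 316, 334 and 220.1. These groups did not overlap either, and the log2 fold change of 1.74 (SE 0.42) did not pass (limma adjusted p = 0.0607). This probe set passed the filter through its double-positive values alone. It passed with quantile normalization, median centring, array weights or no variance trend, with adjusted p of 0.037, 0.0413, 0.0266 and 0.0338.

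A neighbour of Foxf1 also rose in the double-positive arrays, though within each group its arrays ranked in another order than those of Foxf1. Fendrr, a long noncoding RNA transcribed away from Foxf1 from a nearby start on the opposite strand, had signals of 1565, 1975 and 1607 in single-positive and 4939, 5589 and 3989 in double-positive arrays. All 3 double-positive values lay above the single-positive ones. In limma over genes its log2 fold change was 1.48 (SE 0.26, adjusted p = 0.00678), beside 1.40 (SE 0.24, adjusted p = 0.00646) for Foxf1, and it kept passing when any 1 array was left out (adjusted p at most 0.039). The next genes along chromosome 8 in the RefSeq order did not pass. Mthfsd had a log2 fold change of 0.64 (SE 0.42, with an adjusted p of 0.513 by limma), although its groups did not overlap. Foxc2 had overlapping groups, and Foxl1 was too dim to test. The 250 bases before the start of Fendrr are shown because this stretch lies between the starts of both transcripts that rose. In RefSeq's table for GRCm38.p6 they are chr8:121083111-121083360 on the minus strand, and the capitals mark the forkhead motif.
Fendrr: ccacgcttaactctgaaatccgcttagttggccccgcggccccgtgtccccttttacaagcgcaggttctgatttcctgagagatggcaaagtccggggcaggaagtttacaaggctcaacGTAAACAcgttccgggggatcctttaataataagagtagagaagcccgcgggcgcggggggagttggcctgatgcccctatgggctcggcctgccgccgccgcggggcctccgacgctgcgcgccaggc
The forkhead motif searched was GTAAACA, on both strands, and it stands once in this window. Of 32851 mouse promoter windows of the same length, 3.17% hold it. The match describes these letters only.

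Foxf2, the close relative of Foxf1 and also a Hedgehog target, had the largest change of the tested forkhead probe sets. On 1418220_at the signals were 395, 883 and 753 in single-positive and 4948, 3725 and 8477 in double-positive arrays. Every double-positive value was above every single-positive value, and the means differed 8.45-fold, 5717 ± 2468 against 677 ± 253 (SD, n = 3 each). The log2 fold change was 3.02 (SE 0.40, with an adjusted p of 0.00472 by limma). Over the 15 alternatives it ranged from 2.69 to 3.29 with adjusted p between 0.00135 and 0.0214. The other Foxf2 probe set, 1447562_at, was dim, with signals of 51.5, 59.3 and 24.3 against 5.48, 44.4 and 6.76. Double-positive arrays 1 and 3 lay below every single-positive array and double-positive array 2 among them, so the groups overlapped. It lay below the filter in both groups and was not tested, and with no filter its log2 fold change was -0.75 (limma adjusted p = 0.608). The probe sets of Foxf2 thus gave unlike readings of 1 gene, one bright and one near the bottom of the range. When a gene's probe sets were averaged, Foxf2 had a log2 fold change of 1.14 and did not pass (limma adjusted p = 0.0732).

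Foxc1, the next protein-coding gene after Foxf2 on chromosome 13, did not pass on either of its probe sets. On the brighter, 1419486_at, the signals were 757, 1962 and 1926 in single-positive and 1351, 2804 and 1008 in double-positive arrays, and the groups overlapped. Its log2 fold change was 0.14 (SE 0.49, with an adjusted p of 0.952 by limma), and the dimmer probe set, 1419485_at, had signals of 226, 147 and 320.2 against 224, 582 and 243, which overlapped as well. There the change was 0.48 (SE 0.49, with an adjusted p of 0.777 by limma). On the other side of Foxf2 lies Foxq1, a forkhead gene of epithelia. Its brightest probe set, 1438558_x_at, had a log2 fold change of -0.97 over genes (SE 0.42, with an adjusted p of 0.265 by limma). Its other tested probe set, 1422735_at, had -0.21 over probe sets (SE 0.38, limma adjusted p = 0.893). Gmds, an enzyme gene of GDP-fucose synthesis on the far side of Foxc1, had 0.57 (SE 0.32, with an adjusted p of 0.424 by limma), with groups that did not overlap. Neither gene passed. The windows of 250 bases before the starts of Foxf2 and Foxc1 are shown because the first gene rose and its neighbour did not pass. In GRCm38.p6 they are chr13:31625566-31625815 and chr13:31806396-31806645, both on the plus strand, and the capitals mark a CCAAT motif, which reads ATTGG on this strand.
Foxf2: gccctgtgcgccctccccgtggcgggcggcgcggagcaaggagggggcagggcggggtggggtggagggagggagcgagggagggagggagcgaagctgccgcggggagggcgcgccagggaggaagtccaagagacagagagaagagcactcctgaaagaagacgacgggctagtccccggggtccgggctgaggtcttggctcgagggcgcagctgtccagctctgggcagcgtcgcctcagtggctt
Foxc1: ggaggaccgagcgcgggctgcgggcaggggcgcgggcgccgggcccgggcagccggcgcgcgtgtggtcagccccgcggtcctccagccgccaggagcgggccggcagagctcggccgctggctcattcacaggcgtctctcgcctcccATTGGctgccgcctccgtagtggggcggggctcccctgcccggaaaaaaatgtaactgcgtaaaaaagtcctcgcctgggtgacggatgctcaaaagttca
Both windows are rich in G and C, 71.6% and 70.8% of bases, where the median over all windows is 52.4%. Neither holds the GLI motif GACCACCCA (0.225% of all windows), the forkhead motif GTAAACA or a TATAAA box (12.4% of windows), on either strand. The CCAAT motif stands in 33.8% of windows, Foxc1 among them and Foxf2 not. Such windows were matched by symbol for 6 of the 10 genes, and those of Foxf1, Foxc2, Foxl1 and Foxp2 were not used here.

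**Figure D2:**
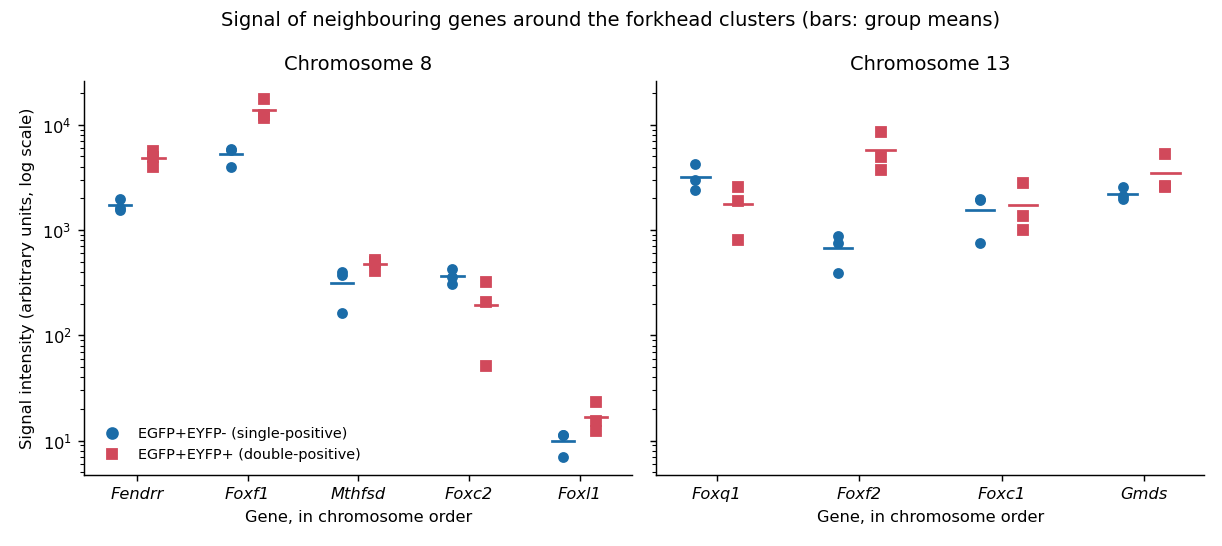
Signal intensity (log axis, arbitrary units) of the genes around Foxf1 (left) and Foxf2 (right) in chromosome order, 1 point per array, with bars at group means. Fendrr, Foxf1 and Foxf2 are higher in all 3 double-positive arrays. So are Mthfsd and Gmds, which did not pass, and Foxl1, which was too dim to test. Foxc1, Foxc2 and Foxq1 overlap between the groups. Levels of different genes cannot be compared, since each is read by its own probes.

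Foxp2, a transcriptional repressor that acts in lung and nervous system development, fell in the double-positive arrays. On 1438232_at, its brightest probe set, the signals were 13790.3, 18655 and 15273 in single-positive and 6561, 3443 and 7193 in double-positive arrays, 2.77-fold lower by the means of 5732 ± 2008 and 15906 ± 2493 (SD, n = 3 each). On 1438231_at they were 3561, 4560.1 and 4511 against 1276, 1212 and 1078, 3.54-fold lower by the means of 1189 ± 101 and 4211 ± 563 (SD, n = 3 each). On both, the highest double-positive value lay below the lowest single-positive value. The log2 fold changes were -1.53 (SE 0.29, with an adjusted p of 0.0224 by limma) and -1.80 (SE 0.25, with an adjusted p of 0.00559 by limma). The second passed under all 15 alternatives (adjusted p at most 0.0443). The first lost its call without single-positive array 1, 2 or 3 (adjusted p of 0.0617, 0.114 and 0.0882), with median centring (0.0919) and without a variance trend (0.0913). Over genes, where 1438232_at stands for Foxp2, its adjusted p was 0.00976, and 0.0568 without single-positive array 2.

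The remaining 3 tested probe sets of Foxp2 had log2 fold changes below 0 without passing. On 1440108_at the signals were 3477, 6048 and 5073 against 1606, 1025 and 4951. Double-positive array 3 stood among the single-positive values there, and without it the log2 fold change went from -1.22 (limma adjusted p = 0.337) to -1.87 (adjusted p = 0.0218). Probe set 1458191_at read 346, 782 and 545 against 281, 420.0 and 107, a change of -1.08 (SE 0.53), and 1422014_at read 96.6, 97.4 and 223 against 168, 105 and 81.2, a change of -0.16 (SE 0.48). In both the groups overlapped. The sixth, 1441365_at, was too dim to test, at 73.9, 24 and 17 against 5.66, 10.1 and 42.7. The largest gap between Foxp2 probe sets, 1.64 on the log2 scale between 1438231_at and 1422014_at, reached the smallest p that the design allows (exact two-sided permutation p = 0.1).

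Foxp1, a relative of Foxp2 that is active in many tissues, had the most probe sets, 8, of which 7 were tested and none passed. All 7 had log2 fold changes below 0, from -1.13 to -0.23, with limma adjusted p from 0.119 to 0.91. The clearest separation was on 1455242_at, with signals of 1585, 2668 and 2777 in single-positive and 843, 1116 and 1152 in double-positive arrays. The groups did not overlap there, and the log2 fold change of -1.13 (SE 0.32) passed with array weights alone among the 15 alternatives (adjusted p = 0.0356). On the brightest probe set, 1435222_at, the signals were 8738, 13455 and 12519 against 8267, 13439.5 and 1810.5. Double-positive array 3 lay far below the rest and the other double-positive arrays lay within or just below the single-positive range. On 1435221_at the signals were 5089.7, 11009.6 and 6008 against 4782, 5139 and 3417 (log2 fold change -0.66, SE 0.32), and double-positive array 2 lay just above the lowest single-positive array. Probe set 1421142_s_at read 1275, 1834 and 2066 against 964, 1349 and 842, and 1421141_a_at read 209, 289 and 577 against 195, 298 and 201. Their log2 fold changes were -0.70 (SE 0.33) and -0.49 (SE 0.46), and the groups of each overlapped. The dimmer 1421140_a_at, with 187, 321 and 294 against 196, 394 and 132, and 1438802_at, with 112, 242 and 149.8 against 77.2, 123 and 148, had -0.23 (SE 0.48) and -0.43 (SE 0.45). The eighth, 1443258_at, was below the filter at 34.2, 25.6 and 28.9 against 18.1, 35.4 and 16.2. The lower readings of Foxp1 and Foxp2 came from the arrays in which the leukocyte, endothelial, urothelial and smooth muscle markers given above were lower too, and the part of those cells was not tested.

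**Figure D3:**
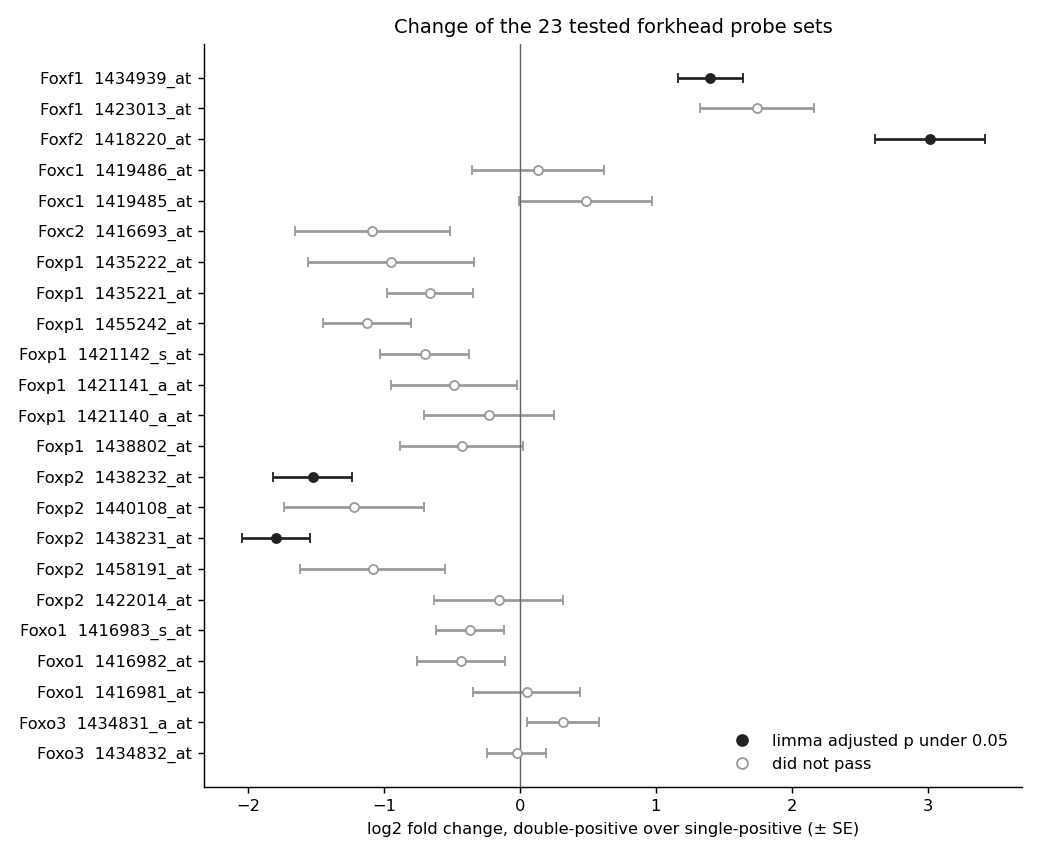
Log2 fold change of the 23 tested forkhead probe sets, double-positive over single-positive, with bars for the standard error of limma. Filled points passed an adjusted p of 0.05, namely 1 of Foxf1 (1.40), 1 of Foxf2 (3.02) and 2 of Foxp2 (-1.53 and -1.80), and open points did not.

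Of Foxc2, Foxd1 and Foxl1, only Foxc2 was bright enough to test. Foxc2, which acts in lymphatic vessels and in mesoderm, had signals of 308, 431 and 358 in single-positive and 51.4, 205 and 321 in double-positive arrays, so that double-positive array 3 lay within the single-positive range. Its log2 fold change was -1.09 (SE 0.57, with an adjusted p of 0.475 by limma). Foxd1, known from kidney stroma, was near the bottom of the range in all single-positive arrays, at 1.9, 2.72 and 3.38, and had 30.8, 203 and 124 in the double-positive arrays. These groups did not overlap, but the mean log2 signal over all 6 arrays, 5.87, was below the filter, and with no filter Foxd1 did not pass (limma adjusted p = 0.0957). No fold is given, since the single-positive values lie under the offset. Foxl1, which marks a thin layer of mesenchyme beneath gut epithelium, had 7.01, 11.4 and 11.3 against 15.2, 23.3 and 12.3. All 6 values were below the offset of 25.01, and with no filter the adjusted p was 0.793.

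Foxo1 and Foxo3 did not pass on any tested probe set. Of the 3 tested for Foxo1, 1416983_s_at had signals of 3725, 2601 and 2999.7 in single-positive and 2160.2, 2558 and 2419.8 in double-positive arrays. The lowest single-positive value lay just above the highest double-positive one, and its log2 fold change was -0.37 (SE 0.25, with an adjusted p of 0.622 by limma). Probe set 1416982_at read 3276, 2079 and 2877 against 1347, 2572 and 2269, a change of -0.43 (SE 0.33), and 1416981_at read 2125, 1096 and 2105 against 1486, 2795 and 1307, a change of 0.049 (SE 0.39). Both had overlapping groups. The brightest Foxo3 probe set, 1434831_a_at, had 12029, 19088 and 12040.2 against 19632, 22178 and 12289, and its log2 fold change came to 0.32 (SE 0.27, with an adjusted p of 0.72 by limma). On 1434832_at the signals were 3900.3, 5240.5 and 4112 against 4181, 4145 and 4600.2, and the change was -0.025 (SE 0.22). The groups overlapped on both. The fourth probe set of Foxo1, 1456529_at, was below the filter at 37.4, 79.3 and 31.8 against 56.5, 16 and 74.4, and so was the third of Foxo3, 1450236_at, at 19.6, 6.45 and 16 against 9.48, 18.5 and 73.7.

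Genes that FOXO factors are known to induce were read beside Foxo1 and Foxo3. Of 18 tested of 20, none rose, 3 fell and 15 did not pass, and the list's median log2 fold change was -0.20, beside 0.021 over all 13464 genes, of which 1.98% rose and 4.38% fell. Txnip, an inhibitor of thioredoxin and of glucose uptake, had signals of 30780.5, 37984 and 26885 in single-positive and 13049, 14034 and 12696 in double-positive arrays, which is -1.25 as a log2 fold change (SE 0.17, with an adjusted p of 0.00182 by limma). Fbxo32, a ubiquitin ligase of muscle atrophy, had -1.85 (SE 0.43, with an adjusted p of 0.0301 by limma). Pdk4, a kinase that shuts off pyruvate dehydrogenase, had -1.30 (SE 0.33, with an adjusted p of 0.0441 by limma). Fbxo32 and Pdk4 lost their calls under many settings, with adjusted p up to 0.131 and 0.164. In the fit over probe sets their brightest probe sets did not pass (limma adjusted p = 0.0613 and 0.08), while Fbxo32 1417522_at did (0.0425). Txnip passed whichever array was left out, and averaging its probe sets took it to an adjusted p of 0.0543. Gadd45a and Cdkn1a, which act in stress responses, had log2 fold changes of 1.62 and 0.92 without passing (limma adjusted p = 0.155 and 0.137).

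The Hedgehog pathway, which acts upstream of Foxf1 and Foxf2 in mesenchyme, was read as a list of 18 genes without the forkhead genes. Of 17 tested, 4 rose, 4 fell and 9 did not pass, with a median log2 fold change of 0.18. Over all 13464 genes 1.98% rose and 4.38% fell, and the median was 0.021. The 4 that rose were the receptor and target Ptch1, the target and effector Gli1, the target and inhibitor Hhip, and Bmp4, a growth factor that mesenchyme makes under Hedgehog signals. Gli1 had signals of 469, 723 and 566 in single-positive and 2014, 3270.1 and 2214 in double-positive arrays, which is 2.04 as a log2 fold change (SE 0.33, with an adjusted p of 0.00464 by limma). Hhip had 3.48 (SE 0.44), Bmp4 1.65 (SE 0.29) and Ptch1 1.60 (SE 0.18), with limma adjusted p of 0.00133, 0.00723 and 0.000744. These 4 numbered 4 without any 1 array. The 4 that fell were the ligands Shh and Dhh and the coreceptors Gas1 and Cdon, while the third ligand, Ihh (0.54), and the coreceptor Boc (-0.36) did not pass. Shh, the ligand of epithelia, had 2680.3, 1776 and 3578 against 71.1, 210.3 and 21.1 (log2 fold change -4.68, SE 0.57, limma adjusted p = 0.0011). Dhh, the ligand known from Schwann cells, had 319, 708 and 639.6 against 13.4, 129.8 and 10.4 (log2 fold change -3.21, SE 0.61, adjusted p by limma 0.0113). It lost its call without single-positive array 2 or 3 (adjusted p of 0.0623 and 0.0575). The double-positive means of both ligands lay below the filter. In the same arrays 6 of 8 urothelial and 3 of 5 nerve and Schwann cell markers fell, with Sox10 and S100b not passing. Shh is itself among these 6 urothelial markers, so its own fall is part of that count. The part of urothelial, nerve and Schwann cells was not tested. The coreceptors Gas1 and Cdon had -1.18 and -1.86 (limma adjusted p = 0.0121 and 0.0351), and each lost its call without some arrays, with adjusted p up to 0.0564 and 0.154. Over all alternatives their adjusted p reached 0.0926 and 0.197. In the fit over probe sets Gas1 passed on its brightest probe set (limma adjusted p = 0.0278) and Cdon did not (0.0693). The count of falls was between 1 and 5 when 1 array was left out. Leaving out single-positive array 2 gave the 1, and leaving out single-positive array 1 or 3 gave 2. Smo, Gli2, Gli3 and Sufu, which carry the signal inside the cell, did not pass.

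**Figure D4:**
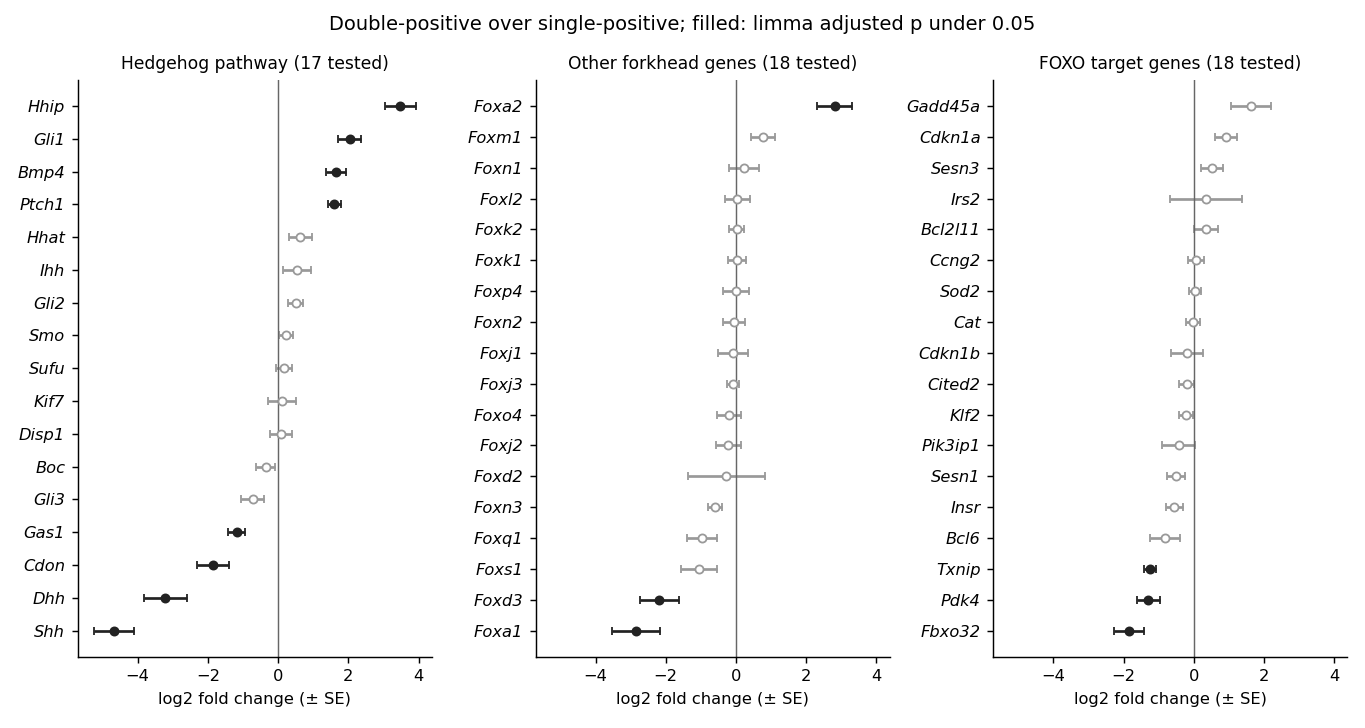
Log2 fold change with standard error, double-positive over single-positive, of the tested genes of the Hedgehog pathway (17), of the other forkhead genes (18) and of FOXO target genes (18). Filled points passed a limma adjusted p of 0.05 over 13464 genes. Hedgehog genes stand at both ends, from Shh (-4.68) to Hhip (3.48), while most other forkhead genes lie near 0.

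Of the other 34 forkhead genes of the mouse, 27 had a probe set with their name alone and 18 were bright enough to test. In limma over genes 1 rose, 2 fell and 15 did not pass, with a median log2 fold change of -0.084, beside 1.98% higher, 4.38% lower and a median of 0.021 over all genes. In the fit over probe sets, by which the member probe sets were called, Foxa2 passed (limma adjusted p = 0.0188). Foxa1 and Foxd3, the genes that fell, did not pass there (limma adjusted p = 0.0731 and 0.0874). Foxa2, a factor of endoderm and floor plate, had signals of 36, 40.5 and 20.4 in single-positive and 220.2, 315 and 722 in double-positive arrays. The groups were widely apart, and its change was 2.81 on the log2 scale (SE 0.50, with an adjusted p of 0.00772 by limma). Foxa2 passed the filter only through its double-positive values, and without double-positive array 3 it was too dim to test. Foxa1, which is expressed in urothelium, had 1031, 405 and 902 against 141, 183 and 7.92, which is -2.84 as a log2 fold change (SE 0.68, with an adjusted p of 0.0344 by limma). In the same arrays 6 of 8 urothelial markers fell, while Upk2 and Krt5 did not pass, and the part of urothelial cells was not tested. Foxa1 lost its call without single-positive array 1, 2 or 3 (adjusted p of 0.119, 0.0564 and 0.129). Foxa1 passed the filter through its single-positive values alone, and with no filter it did not pass (adjusted p = 0.0671). Foxd3, a factor of neural crest and Schwann cell precursors, had 400.4, 124 and 351 against 24.3, 89.2 and 19.9, which is -2.19 as a log2 fold change (SE 0.56, with an adjusted p of 0.0454 by limma). Without single-positive array 3, double-positive array 1 or double-positive array 3 its adjusted p was 0.169, 0.126 and 0.102, and without single-positive array 1 it was too dim to test. Foxd3 too passed the filter through its single-positive values alone, and with no filter it did not pass (adjusted p = 0.0719). Broadly expressed forkhead genes such as Foxj3, Foxk1 and Foxk2 had log2 fold changes of -0.088, 0.024 and 0.025. Foxm1, which acts in dividing cells, had 0.76 (limma adjusted p = 0.291), Foxn3 -0.60 (limma adjusted p = 0.133) and Foxs1 -1.05 (limma adjusted p = 0.324). The groups of each did not overlap, and the double-positive mean of Foxs1 lay below the filter.

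For Foxf1, Foxf2 and Foxp2, whose brightest probe sets passed, the genes of most similar pattern were found by the root mean square difference of log2 signals over the 6 arrays, each gene centred on its own mean. For Foxf1 these were Axin2 (0.16), an inhibitor and target of Wnt signals, Hes1 (0.16), a target of Notch, and Sostdc1 (0.16), a secreted inhibitor of BMP and Wnt. Sostdc1 had signals of 10465, 7215 and 11523 in single-positive and 35808, 17013 and 23288 in double-positive arrays, in which double-positive array 1 was the highest, as for Foxf1. Fendrr, the chromosome neighbour, stood at rank 148 in likeness to Foxf1 (0.37). For Foxf2 they were Ndp (0.23), a secreted ligand of Frizzled receptors, the integrin gene Itga4 (0.24) and Edil3 (0.26), an extracellular matrix protein. Ndp had 218, 449 and 413 against 3949, 2832 and 5139, with its highest value in double-positive array 3, as for Foxf2. For Foxp2 they were Gpt2 (0.16), an aminotransferase, Itga9 (0.18), an integrin, and Lrrfip1 (0.19). These likenesses rest on 6 arrays and mostly on the difference between the groups, and they are descriptions.

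Among tested probe sets of the same forkhead gene, 37 pairs were compared for a difference in fold change. In 4 pairs, 3 of Foxp1 and 1 of Foxp2, the groups separated and the exact two-sided permutation p was 0.1, the smallest that 3 arrays against 3 allow. After Benjamini-Hochberg adjustment over the 37 pairs no p was under 0.854. Probe sets of 1 gene can read different transcript ends and isoforms, and no difference between them could pass 0.05 in this test with 3 arrays a group.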

How the data were processed

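RNA of sorted bladder cells was amplified in 2 rounds, labelled with biotin and measured on Affymetrix MOE430 arrays, per the labels' protocols. Values are the deposited intensity of each probe set on a linear scale. Per the submitters' processing notes GCOS was used; no source used here gives its version, algorithm or scaling. Such amplification usually favours 3' ends, so probe sets far from them can read low. The 6 arrays were grouped by the reporter state in their titles. Genes were named from the platform annotation, and 30 of 30 forkhead probe sets matched RefSeq (GRCm38.p6) by Entrez identifier.

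The analysis used log2(signal + 25.01), where 25.01 is the 20th percentile of the signals. Probe sets with a mean above the 40th percentile (6.81) were tested with limma 3.58.1 in R 4.3.3 (variance trend, two-sided, Benjamini-Hochberg adjustment, threshold 0.05), over 27022 probe sets and, with the brightest probe set per gene, over 13464 genes. On simulated data for 27022 probe sets, the recovery was 8% for a log2 change of 1 and 51% for one of 2, and 3 of 62 calls were false. Only a small part of the probe sets was changed there, and normal noise of the fitted spread was drawn independently for each value. These shares therefore need not hold for the measured arrays. The number of arrays limits the precision. Alternatives covered normalization, offset, filter, variance trend, array weights, a replicate block, the choice of probe set and leaving out each array.

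The forkhead genes and lists were chosen with earlier results of these data known. Named were all their probe sets, chromosome neighbours, the 3 nearest patterns per called gene, the 2 brightest members of each marker list with Actg2 and Acta2, and of each list every called gene or, above 6, the 6 of smallest p. Gas1, Cdon and genes named without a call were added after their values were seen.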

Additional observations from a re-analysis of the deposited data

How the results depend on the processing

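The direction of every called forkhead probe set held under all settings run. The counts of calls moved more, and the cause was not tested. Median centring left 1 lower forkhead probe set and 1 lower FOXO target. The fit without a variance trend left 1 lower forkhead probe set, 0 of the other forkhead genes lower, 2 lower Hedgehog genes and 1 lower FOXO target. Of the other forkhead genes, 1 was lower with the offset at the 10th percentile and 0 with no filter on dim probe sets, and with the filter at the 60th percentile 0 were higher and 0 lower, where fewer genes were tested. Array weights gave 1 higher FOXO target and raised the calls over all probe sets from 925 to 1639 and over genes from 857 to 1345. Averaging the probe sets of a gene left 2 lower Hedgehog genes and 1 lower FOXO target.

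Leaving out 1 array gave 1 to 2 higher and 1 to 3 lower forkhead probe sets, 0 to 1 higher and 0 to 2 lower of the other forkhead genes, 4 to 4 higher and 1 to 5 lower Hedgehog genes, and 0 to 1 higher and 1 to 2 lower FOXO targets. Calls over all probe sets then ranged from 400 to 1121 and over genes from 466 to 1084, with the lowest counts without single-positive array 3. Over probe sets the count also dropped without single-positive array 1 (444), single-positive array 2 (421) or double-positive array 1 (517).

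Reversals of sign were seen for probe sets that did not pass, with main log2 fold changes from -0.23 (Foxp1 1421140_a_at) to 0.14 (Foxc1 1419486_at). They were Foxo3 1434832_at (0.030 with median centring) and, with array weights, Foxc1 1419486_at (-0.021; -0.0029 over genes), Foxp2 1422014_at (0.019) and Foxo1 1416981_at (-0.076). When 1 array was left out, the log2 fold change ranged from -0.31 to 0.45 for Foxc1 1419486_at, from -0.62 to 0.091 for Foxp1 1421140_a_at, from -0.40 to 0.18 for Foxp2 1422014_at, from -0.28 to 0.26 for Foxo1 1416981_at and from -0.11 to 0.10 for Foxo3 1434832_at. Foxo3 over genes was -0.025 when its brightest probe set not shared with other transcripts was used.

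Replicate numbers are the same in both groups, but arrays with the same number did not deviate together (correlations of 0.092, 0.025 and -0.065, and 3 of 6 arrays correlated best with their own number). With the number as a replicate block 897 probe sets and 1014 genes passed, and 1 of the other forkhead genes was lower. Dim probe sets limit what can be said of Foxd1, Foxl1 and the second Foxf2 probe set. All signals of Foxl1 lay below the offset. Those of the second Foxf2 probe set, 51.5, 59.3 and 24.3 in single-positive and 5.48, 44.4 and 6.76 in double-positive arrays, lay on both sides of it. For Foxd1 only the single-positive signals lay below the offset, and the double-positive ones were 30.8, 203 and 124.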
